A study of Homo sapiens with 2 samples.

Results

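The USP genes encode ubiquitin-specific proteases, the largest family of deubiquitinases, and were described here by the m6A peaks that lay in them. The members were all protein-coding genes whose symbol is USP followed by a number, with or without a final X or L, which gave 50 of 20033 protein-coding genes. A peak counted for a gene when its summit lay inside the gene's RefSeq span, and 136 of the 39801 deposited peaks did so. N6-methyladenosine (m6A) had been captured with an antibody from wild-type HCCLM3 cells, an established human hepatocellular carcinoma line. There was 1 immunoprecipitated library (m6A-RIP) and 1 input library of the same line and genotype, with no treatment given in the labels. With no replicate of either library, every value describes this one pair, no test between conditions was possible, and intervals cover counting error only. Positions are on hg38.

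Ubiquitin is joined to lysines of other proteins and marks them for the proteasome, for sorting or for signalling. USP enzymes are cysteine proteases that cut it off again, and most differ from each other in the flanking domains that select substrates and partners. In messenger RNA, m6A lies mainly in long exons and around stop codons and 3' UTRs, in a consensus centred on the letters GGAC and related forms, and is bound by readers such as YTHDF2. The family has no common place in the cell: its members are known from the nucleus, endosomes, mitochondria and the proteasome.

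Peaks were found in 38 of the 50 USP genes (76.0%, 95% Wilson interval 62.6 to 85.7), against 49.3% of all protein-coding genes. A peak with a caller's q-value under 0.05 lay in 34 USP genes (68.0%, 54.2 to 79.2), against 39.0% of protein-coding genes. At a q-value under 1e-5 the number was 22 (44.0%, 31.2 to 57.7), against 28.5%. USP genes were long, with a median span of 70.1 kb (quartiles 40.2 to 101.5), against 24.1 kb (8.54 to 65.1) for all protein-coding genes. Span moved with the share of genes that held a peak at a q-value under 0.05. Under 30 kb, 4 of 11 USP genes held one (36.4%), against 28.7% of protein-coding genes of that span. From 30 to 100 kb, 18 of 26 did (69.2%), against 49.9%, and from 100 kb up 12 of 13 did (92.3%), against 55.4%. The input level of genes without a peak is not in the peak list, so the part of expression in these shares was not tested.

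The 136 peaks rested on a median of 16 RIP fragments at the summit (quartiles 6 to 35), against 12 (4 to 32) for peaks in all protein-coding genes. Their median fold of RIP over input was 3.62 (quartiles 2.72 to 4.93), against 3.38 (2.43 to 4.73). Of the 136, 84 (61.8%, 53.4 to 69.5) had a q-value under 0.05, against 53.7% of peaks in protein-coding genes. Among those stronger peaks the medians lay close together, at 4.67 in USP genes and 4.60 in all protein-coding genes. A further 22 USP peaks had a q-value of 1, and 16 rested on at most 3 fragments. The fold is the authors' value for each peak. It is the RIP fragments times 0.642, plus 1, over the input level plus 1. The factor 0.642 sets the deeper RIP library level with input, so an input level stands on the scale of input fragments and RIP fragments are unscaled. The input level is the background value that the caller set against the RIP fragments. Many of its values were not whole numbers, and none in USP peaks was below 0.246. It thus need not equal the input fragments at the summit. The q-value is the p-value of the peak caller after its correction for multiple testing.

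**Figure D1:**
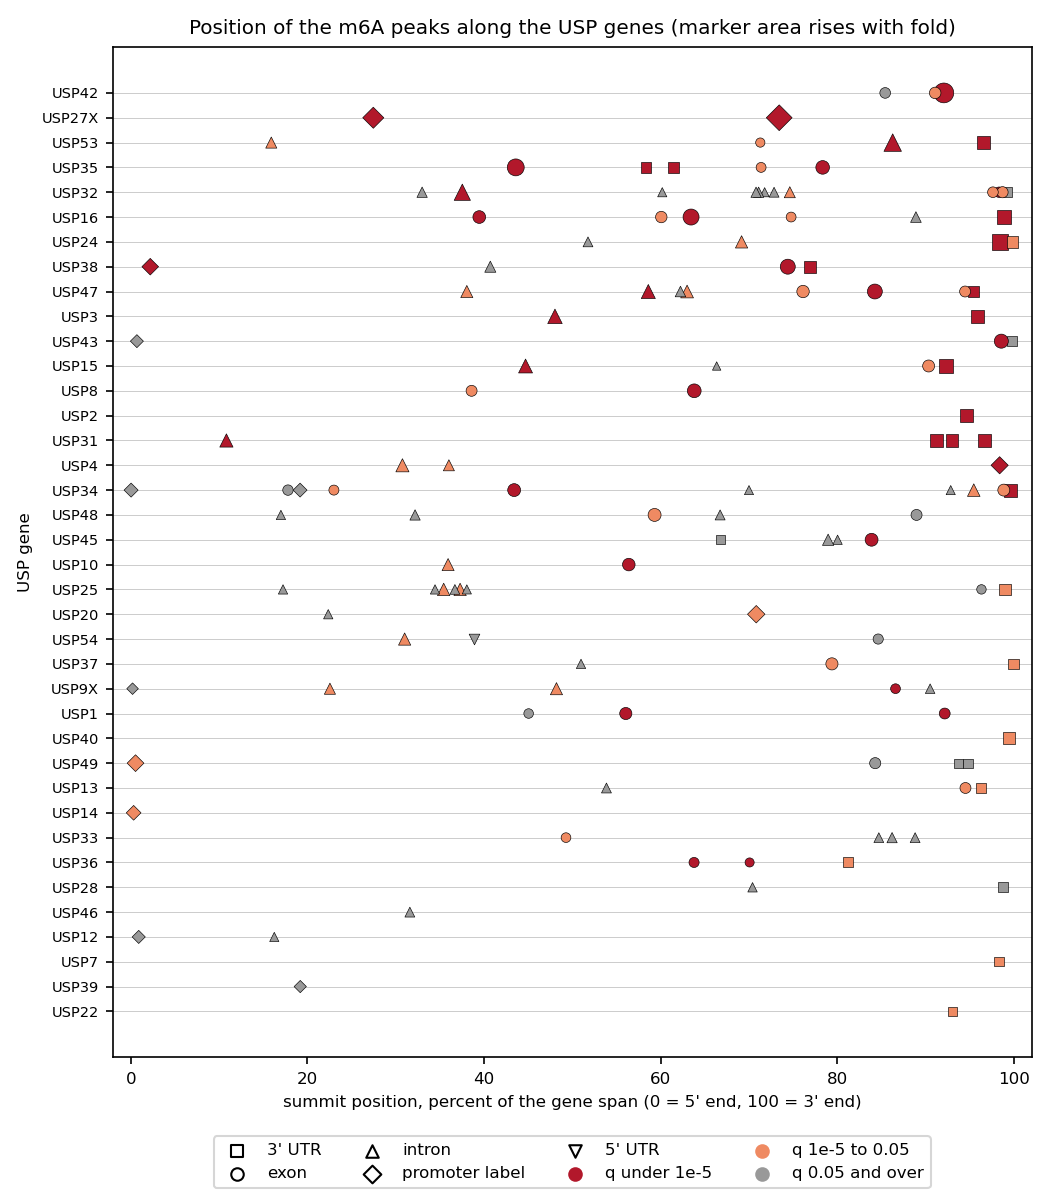
Each row is 1 of the 38 USP genes with a peak, ordered by its highest fold, and the horizontal axis gives the summit's place from the 5' end (0) to the 3' end (100) of the gene span in percent. Marker shape gives the region label, colour the q-value class and area the fold; squares, which are 3' UTR peaks, gather at the right, while triangles, which are intron peaks, spread through the middle.

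Peaks of USP genes lay towards the 3' end. The median summit of peaks with a q-value under 0.05 stood at 74.5% of the span (quartiles 47.2 to 94.5), against 69.8% (34.0 to 92.2) in all protein-coding genes. Of these 84 summits, 31 (36.9%) fell in the last 10% of the span, against 28.6% in all protein-coding genes, and 3 (3.57%) in the first 10%. The 20 intron peaks among them, from 13 genes, stood further upstream, with a median of 37.8% (34.3 to 59.7). The intron and first 10% values were not computed over all protein-coding genes.

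Exons outside UTRs were the commonest place for a stronger peak. They held 35 of the 84 peaks with a q-value under 0.05 (41.7%, 31.7 to 52.4), against 24.2% (23.5 to 24.8) in all protein-coding genes. The 3' UTRs held 22 (26.2%, 17.98 to 36.5), against 27.6%, and introns 20 (23.8%, 16.0 to 33.9), against 27.1%. Promoter labels, which reach 3 kb from a transcript start, covered 7 (8.33%, 4.10 to 16.2), against 17.99%. Over all 136 peaks without a q-value limit, introns came first with 52 (38.2%, 30.5 to 46.6), followed by exons with 42 (30.9%, 23.7 to 39.1). Of the 34 genes with a peak at a q-value under 0.05, 28 had at least 1 in an exon or a 3' UTR, and the strongest was in an exon in 15, in an intron in 9, in a 3' UTR in 6 and under a promoter label in 4.

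**Figure D2:**
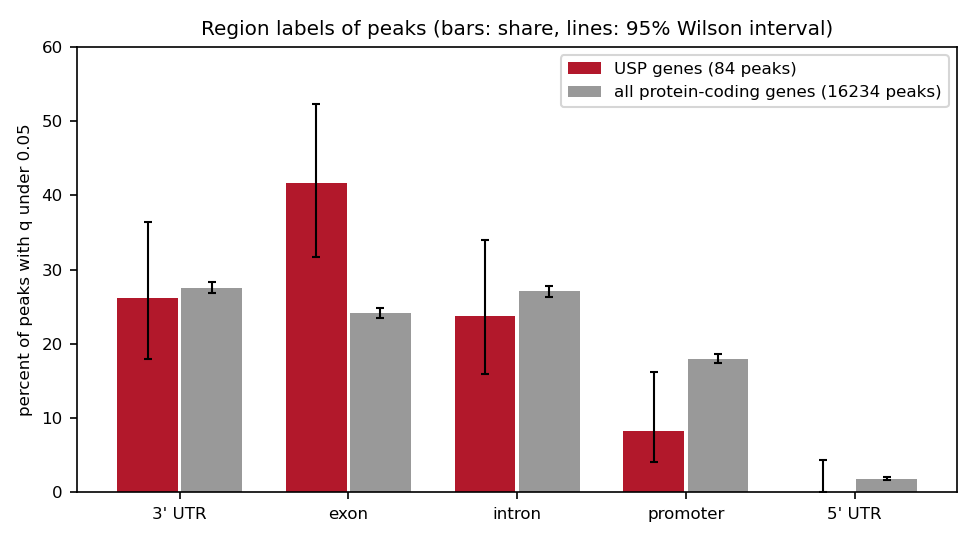
Bars give the percent of peaks with a q-value under 0.05 per region label in USP genes (red, left of each pair, 84 peaks) and in all protein-coding genes (grey, 16234 peaks), with 95% Wilson intervals as lines. The exon bar is the highest for USP genes, at 41.7% against 24.2%, and the promoter bar is lower, at 8.33% against 17.99%.

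Sequence was at hand for few of these places. A weak peak lay just inside the start of USP34, which shares a divergent promoter region with USP34-DT. Its fold was 2.80 (1.36 to 5.65) on 5 RIP fragments over an input level of 0.503, with a q-value of 0.511. The 29 bases centred on its summit, chr2:61470970-61470998 on the minus strand (the strand of USP34, RefSeq GRCh38.p14), are shown because they are the only bases under a USP summit that the sequence tables hold, with the 5 bases at the summit in capitals.
USP34 summit: cccgccccctccCCCCCtctcccctcccc
GGAC, searched on both strands, was not in this stretch, which was 86.2% G and C. Of 15842 promoter windows of protein-coding genes, the middle 29 bases held GGAC on either strand in 20.8%. These windows ran from 250 bases before the start to 50 after it. Their middle thus lay before the start, whereas the USP34 summit lay after it. The deposited table put 1 further peak under a microRNA gene inside a USP gene. It is the strongest peak of USP20 (chromosome 9, 129868101 to 129868535), and its promoter label refers to MIR6855, whose hairpin begins 1309 bases from the summit. The mature forms are given to identify that neighbour, with the seed in capitals, and no microRNA was measured here. Both lie on the plus strand of chromosome 9 (RefSeq GRCh38.p14), the 5p form at 129869610 to 129869634 and the 3p form at 129869650 to 129869671, inside the span of USP20.
hsa-miR-6855-5p: uUGGGGUUuggggugcagacauugc
hsa-miR-6855-3p: aGACUGACcuucaaccccacag
Their seeds differ, and the peak lies outside the hairpin.

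USP42, a nuclear protease known to act on p53, carried the strongest peak of the family. It lay in exon 15 of 16 (chromosome 7, 6154704 to 6155460), with 124 RIP fragments over an input level of 4.74 and a fold of 14.04 (95% Poisson interval 11.7 to 16.7). Among the 7804 protein-coding genes with a peak at a q-value under 0.05, this fold stood at percentile 98.5. A second peak in the same exon, from 6153944 to 6154496, had a fold of 4.11 (2.62 to 6.18) on 20 fragments over 2.37, and a peak in exon 13 had 3.39 (1.82 to 5.98) with a q-value of 0.197. The enrichment of USP42 thus sat in 1 late exon, at 92.1% of its span for the strongest summit. The deposited table listed all 3 under the neighbour CYTH3.

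The other members known for p53 and its ligase MDM2 had lower folds. USP10, a cytoplasmic p53 protease that binds G3BP1, had 141 RIP fragments over an input level of 17 in exon 5 of 15 (chromosome 16, 84744783 to 84745913), a fold of 5.08 (4.29 to 5.98). Its intron 2 peak had 4.60 (2.47 to 8.12) on 9 fragments. USP7, which stabilises MDM2 and p53, had a single 3' UTR peak of fold 2.25 (1.66 to 2.99) with 44 fragments over 12. USP28, a MYC-stabilising protease that also binds 53BP1, had peaks of fold 2.90 and 2.43 only, with q-values of 0.173 and 1. The interval of USP42 lay above those of USP10 and USP7, and these differences have no replicate check.

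Among the 8 members known to act on ubiquitin of histones, 5 held a peak (62.5%), against 49.3% of protein-coding genes and 76.0% of USP genes, and all 5 kept one below the q-value limit of 0.05. USP27X, an intronless partner of the SAGA subunits ATXN7L3 and ENY2, had the second highest fold of the family, 11.8 (8.67 to 15.7), at 1 peak (chromosome X, 49880927 to 49882018) with 44 RIP fragments over an input level of 1.48. A second peak nearer its start, from 49880139 to 49880560, had a fold of 7.56 (4.92 to 11.2) with 22 fragments over 1. Both carry promoter labels, but their summits stood at 73.4% and 27.5% of a 3.08 kb gene, inside the transcript. USP22, the SAGA subunit itself, had a single peak, in its 3' UTR, with 146 RIP fragments over an input level of 50, a fold of 1.86 (1.57 to 2.18). It had the highest input level under any USP peak and the lowest fold among genes with a q-value under 0.05. USP51, the third member of this group and also a short gene at 5.23 kb, had no peak.

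USP16, which removes ubiquitin from histones before mitosis, had 6 peaks, and the q-value limit of 0.05 kept 5. Exon 13 of 18 carried the strongest (chromosome 21, 29043431 to 29043802), with 26 RIP fragments over an input level of 1 and a fold of 8.84 (5.95 to 12.7). Its 3' UTR had 6.43 (3.87 to 10.2), exon 5 had 5.20 (3.76 to 7.04), exon 12 had 4.03 and exon 14 had 2.73. USP3, another histone protease, had 7.08 (4.31 to 11.1) in intron 2 on 16 fragments and 4.95 (3.66 to 6.57) in its 3' UTR on 45. USP49 reached 4.41 (2.25 to 8.23) at its start on 7 fragments, and its 3 other peaks had q-values of 0.0957 to 1. USP21 and USP44 had no peak in their spans.

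USP1, which acts with WDR48 on proteins of DNA crosslink repair, had well-covered exon peaks. Exon 6 of 9 (chromosome 1, 62444819 to 62445580) had 144 RIP fragments over an input level of 19 and a fold of 4.67 (3.95 to 5.49). Its last exon had 76 over 13 and a fold of 3.55 (2.82 to 4.43), and exon 5 had 2.52 with a q-value of 0.0881. USP48, a nuclear protease, had 1 of 5 peaks at a q-value under 0.05, in exon 13 of 26 with a fold of 5.45 (3.37 to 8.45). USP45, a partner of the repair nuclease ERCC1, had 5.38 (3.76 to 7.50) in exon 14 of 18 and 3 peaks with q-values of 0.0537 or more. USP47, known for base excision repair, had 8 peaks, and the q-value limit of 0.05 kept 7. Exon 20 of 28 carried the strongest (chromosome 11, 11942500 to 11943242), with 97 fragments over 7.40 and a fold of 7.53 (6.13 to 9.16), and the 3' UTR had 83 over 13 and a fold of 3.88 (3.10 to 4.79). Its intron 8 held 3 peaks within 5272 bases with folds of 3.30 to 6.63, and 2 of them had a q-value under 0.05.

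USP8, which deubiquitinates EGFR and other receptors on endosomes together with the STAM adaptors, had well-covered peaks in exons. Exon 11 of 20 (chromosome 15, 50481636 to 50482186) had 155 fragments over an input level of 15 and a fold of 6.28 (5.34 to 7.34), and exon 5 had 3.62 (2.34 to 5.40) on 21. USP32, a relative of USP6 that acts on the late endosome protein RAB7, held the most peaks of the family, 12, of which 5 had a q-value under 0.05. Its strongest lay in intron 2 of 33 (chromosome 17, 60330107 to 60330609), with 27 fragments over 1 and a fold of 9.16 (6.21 to 13.1). Exons 31, 32 and 33 of 34 had 3.37, 3.18 and 3.77. A further 5 peaks lay in intron 11 within 9357 bases, with folds of 2.24 to 3.71, and 1 of them had a q-value under 0.05. USP6, a gene known from fusions in bone lesions, had no peak. USP20 and USP33, relatives known for receptor recycling, reached 4.86 (2.92 to 7.73) and, in exon 11 of 25, 2.61 (1.81 to 3.65).

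Of the 4 members known for Hippo, Wnt and TGF-beta signalling, 3 held a peak, each at a q-value under 0.05 (75%). The share was 68.0% over all USP genes and 39.0% over protein-coding genes. The median span of the 4 was 153.6 kb, against 70.1 kb for all USP genes. USP34, a Wnt pathway protease that acts on axin, held 10 peaks over 284 kb, 5 with a q-value under 0.05. Its 3' UTR peak (chromosome 2, 61187901 to 61188946) had 59 RIP fragments over an input level of 6 and a fold of 5.55 (4.26 to 7.12). Exon 15 of 80 had 64 over 6.81 and a fold of 5.39 (4.18 to 6.84), and exon 3 had 2.85 (2.01 to 3.94). USP9X, a large protease with many substrates, had the most RIP fragments of any USP peak, 165 over an input level of 39, in exon 35 of 45, where the fold was 2.67 (2.28 to 3.11). Its folds in introns 14 and 1 were 4.67 (2.72 to 7.63) and 3.78 (2.46 to 5.59). USP24, of similar size, had a 3' UTR peak (chromosome 1, 55068490 to 55069013) with 77 over 5 and a fold of 8.40 (6.66 to 10.5), whose interval overlapped that of the intron 14 peak of USP9X. USP15, which acts on the TGF-beta receptor, had 6.10 (4.52 to 8.07) in its 3' UTR on 46 fragments and 6.47 (3.77 to 10.6) in an intron on 13. USP4, its close relative, had 4.70 (3.59 to 6.05) near its 3' end, under a promoter label that refers to C3orf62, and 5.63 (3.43 to 8.84) in intron 6. USP11, the third of this group, had no peak.

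Of the 4 members known for MYC and the cell cycle, 3 held a peak at a q-value under 0.05 (75%). The share was 68.0% over all USP genes and 39.0% over protein-coding genes. USP36, a nucleolar protease that stabilises MYC, had 155 RIP fragments over an input level of 45 in exon 16 of 21, a fold of 2.18 (1.86 to 2.55), and 85 over 18 in exon 14, a fold of 2.92 (2.35 to 3.602). USP37, which protects cyclin A, had 4.67 (2.72 to 7.63) in exon 20 of 26 and 3.10 (1.96 to 4.71) at its 3' end, where VIL1 overlaps. USP2, which acts on cyclin D1, had 1 peak, in its 3' UTR, with 11 fragments over 0.296 and a fold of 6.22 (3.49 to 10.5). USP25, a regulator of innate signalling, held 8 peaks, of which 3 had a q-value under 0.05. Its intron 4 held 5 of the 8 within 5400 bases, with folds of 2.26 to 4.92, and 2 of them had a q-value under 0.05. Its 3' UTR had 4.29 (2.71 to 6.52).

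USP53, a tight junction protein whose loss in patients causes cholestasis, had the third highest fold. The peak lay in intron 16 of 17 (chromosome 4, 119283287 to 119284298), with 32 RIP fragments over an input level of 1 and a fold of 10.8 (7.52 to 14.99). Its 3' UTR had 43 over 4 and a fold of 5.72 (4.19 to 7.63), and exon 15 had 59 over 16 and a fold of 2.29 (1.75 to 2.93). USP54, its relative, reached 4.73 (2.48 to 8.58) in intron 1 on 8 fragments. USP35 had 123 over 7 in exon 10 of 11 (chromosome 11, 78209730 to 78210220), a fold of 9.99 (8.32 to 11.9), the fourth highest. The 4 other USP35 peaks, with folds of 2.77 to 6.11, lay where GAB2 overlaps, and 2 of them carry GAB2 exon labels, so they cannot be assigned to either gene. USP38, related to USP35, had 7.62 (5.70 to 10) in its last exon (chromosome 4, 143213647 to 143214433) with 49 over 3.26, 4.38 (3.31 to 5.68) in its 3' UTR and 4.31 (3.12 to 5.84) near its start. Each of the 4 USP31 peaks had a q-value below 1e-5. The strongest was in intron 1 of 15, with a fold of 5.755 (3.87 to 8.28), and 3 were in its 3' UTR at folds of 5.17 to 5.44. USP43 had 6.60 (4.17 to 10.02) in its last exon.

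**Figure D3:**
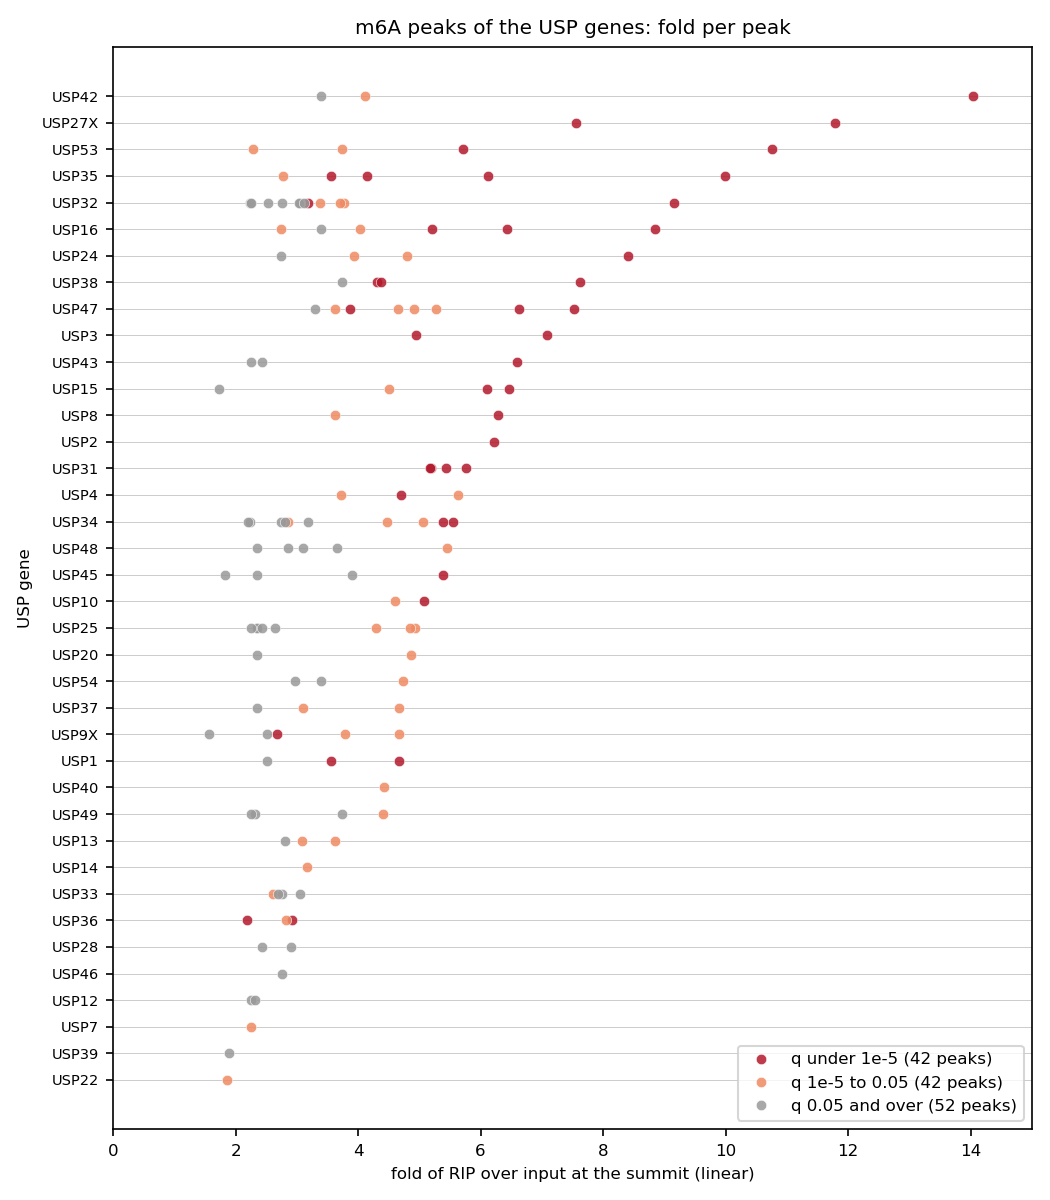
Each point is 1 of the 136 peaks, placed by its fold of RIP over input on a linear axis and by its USP gene, with colour for the q-value class. USP42 stands at 14.04, followed by USP27X, USP53 and USP35 between 11.8 and 9.99, and the gene at the bottom is USP22, whose only peak stands at 1.86.

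Of the 4 members known for the proteasome, organelles and interferon, USP14 alone had a peak (25%), against 49.3% of protein-coding genes and 76.0% of USP genes. USP14, which sits on the proteasome, had 38 RIP fragments over an input level of 7 at its start on chromosome 18, a fold of 3.17 (2.28 to 4.31). USP30 of the mitochondrial outer membrane, USP19 of the endoplasmic reticulum and USP18, which removes the ubiquitin-like ISG15, had none. USP13, known to act on beclin 1, had 3.62 (2.34 to 5.40) in exon 20 of 21 and 3.08 (2.15 to 4.28) in its 3' UTR, and USP40 had 4.42 (2.97 to 6.36) in its 3' UTR. USP12, USP46 and the splicing factor USP39 had peaks, with highest folds of 2.31, 2.75 and 1.89, but none at a q-value under 0.05, and the USP39 peak lay where C2orf68 overlaps. USP5, USP26, USP29 and USP50 complete the 12 genes without a peak, with USP6, USP11, USP18, USP19, USP21, USP30, USP44 and USP51.

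Of the related genes compared by their strongest peak, USP42 stood above USP36 and USP27X above USP22, with intervals that lay apart and cover counting error only. The intervals of USP24 and USP9X, USP35 and USP38, USP16 and USP45, USP31 and USP43, USP4 and USP15, USP3 and USP49, USP53 and USP54, USP20 and USP33, and USP47 and USP40 overlapped. For USP9X the overlap depended on the peak taken, in intron 14 on 13 fragments. Its peak of highest −log10 p, in exon 35, had 2.67 (2.28 to 3.11), apart from the interval of USP24 (6.66 to 10.5). In 7 of the 17 groups of related genes, 1 or more genes held a peak at a q-value under 0.05 while a relative had none in its span. These were USP15 and USP4 against USP11, USP27X and USP22 against USP51, USP3 and USP49 against USP44, USP32 against USP6, USP2 against USP21, USP13 against USP5, and USP37 against USP26 and USP29. The relatives without a peak had spans of 5.23 kb for USP51, 6.22 kb for USP21, 12.8 kb for USP29, 14.5 kb for USP5 and 15.3 kb for USP11. They were longer for USP44 (35.1 kb), USP6 (58.96 kb) and USP26 (73.9 kb). Of all 50 USP genes 12 held no peak, and 49.3% of protein-coding genes held one.

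**Figure D4:**
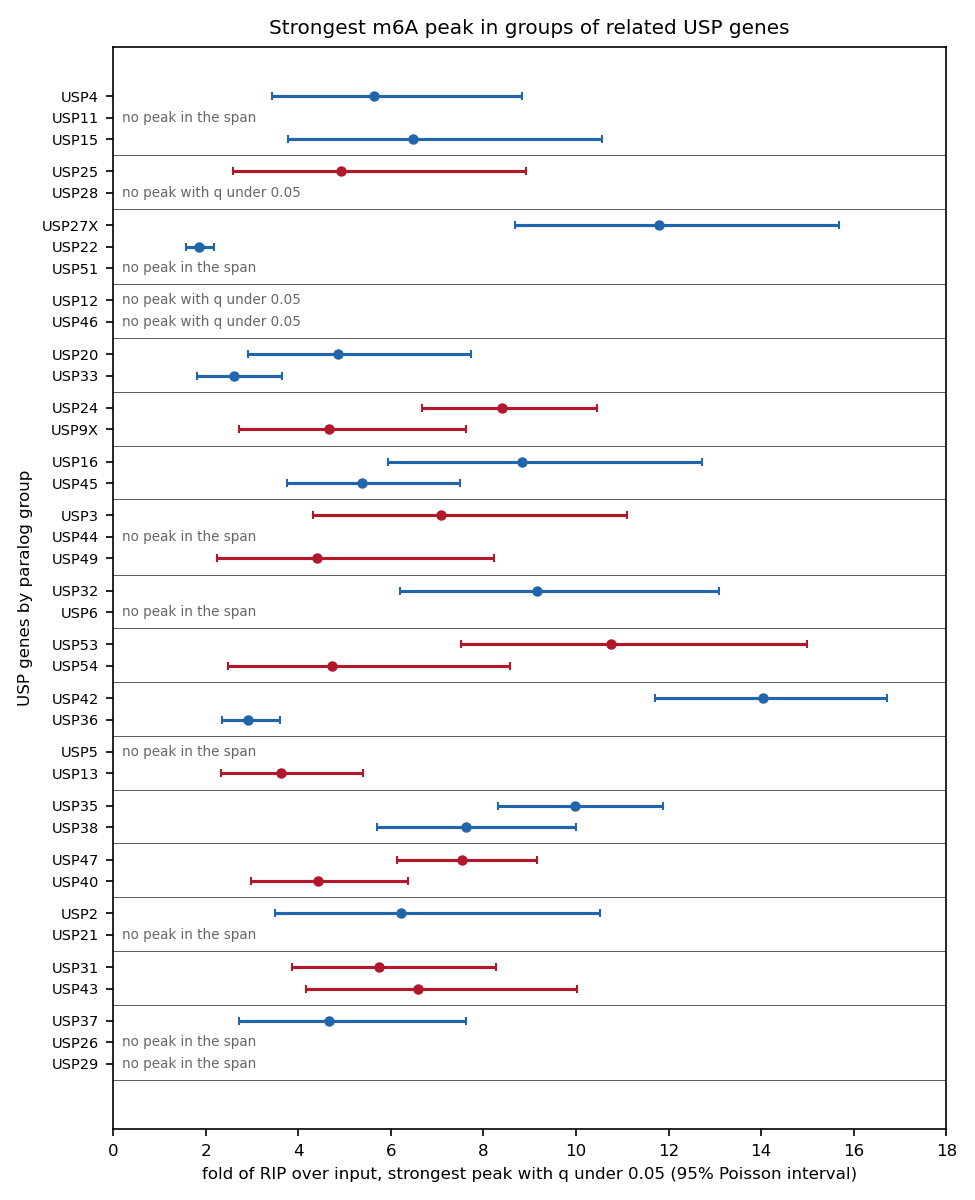
Points give the fold of the strongest peak with a q-value under 0.05 in each gene, with 95% Poisson intervals, for groups of related USP genes separated by lines; genes without such a peak are marked in words. The intervals of USP42 (11.7 to 16.7) and USP36 (2.35 to 3.602), and of USP27X (8.67 to 15.7) and USP22 (1.57 to 2.18), lie apart.

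By the deposited fold, the highest values stood at intermediate input levels. The 13 USP peaks with an input level of at least 10 had folds of 1.57 to 6.28, and the 51 with an input level below 1 had folds of 1.72 to 7.08. The strongest peaks of USP42, USP27X, USP53, USP35, USP32 and USP16 lay between those limits, at input levels of 1 to 7. The fold adds 1 to both sides, which lowers it most where the input level is low. With 0.1 added in place of 1, the strongest peaks of USP53, USP2, USP27X and USP42 had folds of 18.8, 18.1, 17.9 and 16.5, so USP42 no longer came first. The USP2 peak had an input level of 0.296, and a USP15 peak at 0.444 reached 15.5. Both the order of the leading genes and their place along the input level thus depend on this constant.

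**Figure D5:**
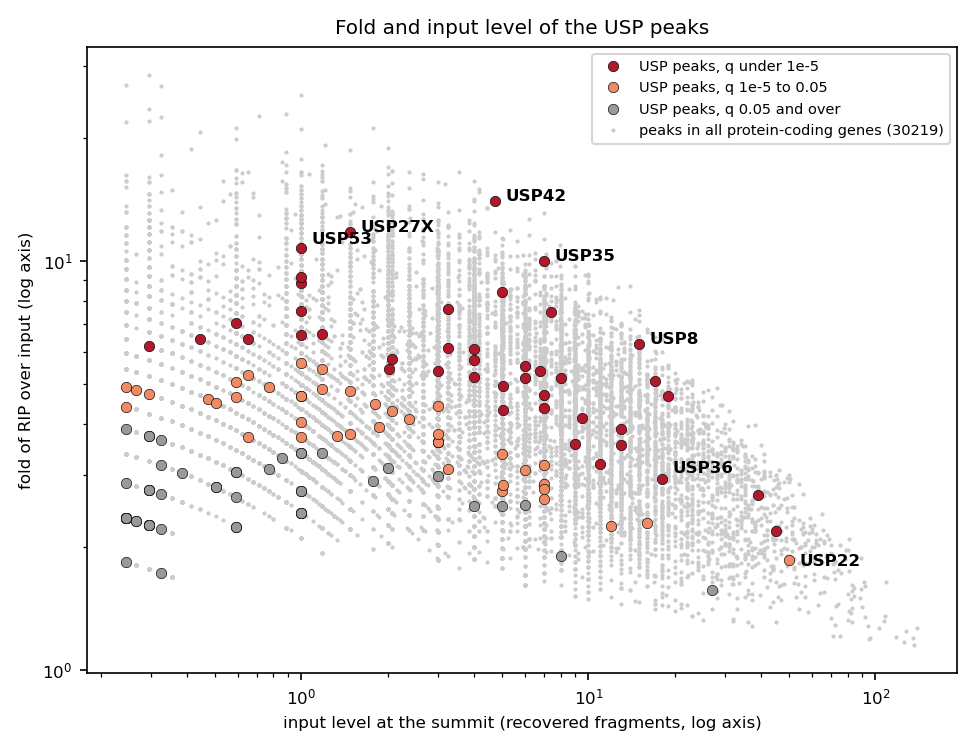
Both axes are logarithmic: the input level recovered for each peak runs across and the fold of RIP over input runs up. That level need not equal the input fragments at the summit. Coloured points are the 136 USP peaks by q-value class and grey points the 30219 peaks in all protein-coding genes; USP42 at an input level of 4.74 and USP35 at 7 lie on the upper edge of the USP peaks, and USP22 at 50 lies furthest to the right among them.

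The deposited table, which names the gene with the nearest transcript start, listed 67 of the 136 peaks (49.3%) under the USP gene that held the summit. Of 3' UTR peaks, 10 of 28 were listed so, and of exon peaks 16 of 42. For 11 of the 34 genes with a peak at a q-value under 0.05, every such peak was listed under a neighbour, USP42 and USP34 among them. Another RefSeq gene overlapped the summit of 13 USP peaks, and for 7 of them it was protein-coding. The list carries no strand, so those 13 cannot be assigned to either gene. They include the 3' UTR peaks of USP34, where the transcribed pseudogene AHSA2P overlaps, and of USP3, where USP3-AS1 does, the intron 2 peak of USP10 and the USP14 peak.

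Genes of other deubiquitinase families also carried peaks. They were listed by family and not by enzyme activity, so a listed gene need not encode an active deubiquitinase. Of 41 genes in the OTU, UCH, Josephin, JAMM, MINDY and ZUP1 families, 29 held a peak (70.7%), against 49.3% of protein-coding genes, and 23 one with a q-value under 0.05 (56.1%), against 39.0%. Their median span was 34.2 kb. In the OTU family 12 of 16 did, led by TNFAIP3, an inhibitor of NF-kB signalling, at 10.5 (7.38 to 14.4) and YOD1 at 9.31 (7.32 to 11.7). Of 12 JAMM genes, 4 did, led by BRCC3 at 5.54 (4.35 to 6.96) and STAMBP at 3.81 (2.83 to 5.05). The MINDY and ZUP1 list had 4 of 5, with MINDY2 at 10.04 (6.85 to 14.3) and MINDY1 at 9.40 (6.89 to 12.5), the Josephin list 2 of 4, with JOSD2 at 6.14 (4.10 to 8.89) and JOSD1 at 3.62 (2.89 to 4.47), and the UCH list 1 of 4, UCHL5 at 4.26 (2.29 to 7.51). All 4 genes with a USP fold whose symbols fell outside the naming rule had one, led by CYLD, which trims ubiquitin chains in NF-kB signalling, at 13.3 (9.67 to 17.97) in its 3' UTR and USPL1 at 4.67 (2.72 to 7.63).

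Of 14 genes for partners of USP enzymes, 13 held a peak (92.9%), against 49.3% of protein-coding genes, and all 13 kept one below the q-value limit of 0.05, against 39.0%. Their median span was 42.7 kb (quartiles 12.2 to 74.1), against 24.1 kb for all protein-coding genes. WDR20, a beta-propeller activator of USP12 and USP46, and WDR48, which activates both and USP1, reached 13.3 (10.9 to 16.1) in a 5' UTR and 12 (9.37 to 15.2) in a 3' UTR. USP12 and USP46 themselves had no peak at that threshold, and USP1 had 4.67. BECN1 was the partner without a peak.

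The peak list offers marker genes of the labelled liver origin only through their peaks. Of 10 hepatocyte and liver cancer markers, 4 held a peak (40%) and 3 one with a q-value under 0.05 (30%), against 49.3% and 39.0% of protein-coding genes, so peaks gave no check of that origin. Those past the limit included HNF4A at 11.5 (8.54 to 15.1) and APOB at 8.53 (5.13 to 13.5), while ALB, APOA1, TTR, AFP, GPC3 and KRT18 held none. Of 7 markers of immune, endothelial and stromal cells, PECAM1 alone held peaks (14.3%).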

How the data were processed

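m6A-RIP and input RNA of HCCLM3 cells were sequenced as 1 library each. The submitters' processing notes name HISAT2, MACS2 and the build hg38. Tool versions, settings and the handling of duplicate reads are not given here. The authors deposited 1 annotated list of 39801 peaks called on RIP over input. Its fold over input is a linear ratio for the summit position, per the file headers, and is the authors' own value. The columns used as −log10 p and −log10 q have damaged headers and were identified from the deposited values; the deposited score is 10 times −log10 p rounded down. Summit offsets and distances to the nearest transcript start are other deposited positions, in bases.

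Genes and spans came from RefSeq (GRCh38.p14), and a peak was given to every protein-coding gene whose span held its summit. Strand came from the promoter table for 39 USP genes and otherwise from the deposited table or exon order; 2 genes without peaks had none. Fold and p-value together gave back the RIP fragments at each summit and the input level set against them. A pseudocount of 1 and a RIP scaling factor of 0.642 were used. Whole fragments met both values for 100% of peaks, to within 0.001 of the deposited −log10 p, and a single number did so for 98.2%. On 1431 simulated peaks all fragments were recovered (100%). Those peaks were made with the same formula and factor, so they check the inversion and not the formula. Total depth is not stated. Each fold has an exact 95% Poisson interval for its RIP fragments, taking the input level as fixed. PCR copies cannot be told from separate molecules, so intervals cover counting error only. Named genes were, by rule, the 12 of highest fold, the 8 of highest −log10 p, the 5 with most peaks, every member without a peak, and listed relatives and role groups. The members, lists and rules were chosen with earlier results of these data known. Analyses used Python 3.11.15, pandas 2.3.3 and SciPy 1.17.1. Motif counts under the summits were not made, since no genome was used here. Alternative peak thresholds, assignments and pseudocounts were also tried.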

Additional observations from a re-analysis of the deposited data

Results flagged for a closer look

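The deposited table lists 25 peaks under a USP gene although their summits lie outside its span, and 9 of these had a q-value under 0.05. They were outside the comparisons above and are given because each exceeds input by the caller's test. A peak under USP44, of fold 3.89 (2.94 to 5.05) on 53 RIP fragments, lay 2558 bases past its span, in METAP2. The peak under USP21, of fold 3.18 (2.41 to 4.13), lay 796 bases upstream, in UFC1. USP36 was listed with 3 peaks upstream, of folds 4.67, 5.44 and 3.18, the last in TIMP2. The peak under USP40, of fold 7.80 (5.21 to 11.3), lay in an intron of DGKD, and that under USP49, of fold 4.44 (3.22 to 5.99), in MED20. The peak under USP38, of fold 4.73 (2.48 to 8.58) on 8 fragments, lay 2059 bases past the 3' end in no RefSeq gene. The peak under USP9X, of fold 3.46 (2.21 to 5.20), lay 72890 bases upstream. Whether any of these belongs to a USP transcript was not tested.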

How the results depend on the processing

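The number of USP genes with a peak, of 50, was 38, against 49.3% of protein-coding genes. It stayed between 28 and 38 under the alternatives except a q-value under 1e-5. There it was 22, against 28.5% of protein-coding genes, and that limit leaves fewer peaks, 42 of 136. At a fold of at least 4 it was 28, against 30.9%. With exon and UTR labels only it was 31, against 33.1%, and by the deposited gene 37, against 49.2%. The share of USP peaks in 3' UTRs was 20.6%, and 33.3% at a q-value under 1e-5. Over peaks in all protein-coding genes it rose likewise, from 18.8% to 34.2%. By the deposited gene the USP share was 15.2%. The median fold was 3.62, and by construction higher at a q-value under 0.05 (4.67), under 1e-5 (5.63) and at a fold of at least 4 (5.24). The median over genes of the highest fold was 5.23, and 7.70 with a pseudocount of 0.1, which moved 17 of 38 genes beyond their counting interval. Taking the peak of highest −log10 p moved 2 genes (USP36 and USP9X). Taking only exon and UTR peaks moved 3 of 31: USP32 to 3.77, USP53 to 5.72 and USP9X to 2.67. The lists of other families (41 genes), partners (14) and USP-fold genes outside the naming rule (4) together held 46 genes with a peak. Across the alternatives their number stayed between 31 and 46. It was 31 with the stricter q-value limit of 1e-5, and also with the fold limit of 4. The share of protein-coding genes fell as well, from 49.3% to 28.5% and 30.9% respectively. No paired analysis was possible because each group has 1 library. The motif alternatives were not run, since no genome was used here. Depth limits the weak peaks most: 16 USP peaks rest on at most 3 fragments.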
